A study of Mus musculus with 6 samples.

Results

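Retinoic acid is the active form of vitamin A and regulates transcription through nuclear receptors. A cell takes up retinol, oxidizes it reversibly to retinal and then irreversibly to retinoic acid, and clears the acid by hydroxylation, so that the level of the acid is set by synthesis and breakdown together. In the intestine, retinoic acid is known for its roles in epithelial maturation and in the homing of lymphocytes to the gut. The 9 genes described here cover these steps: the retinol receptor gene Stra6, the retinol dehydrogenase gene Rdh10, the retinal reductase gene Dhrs3, the retinal dehydrogenase genes Aldh1a1, Aldh1a2 and Aldh1a3, the binding protein genes Crabp1 and Crabp2, and the hydroxylase gene Cyp26b1. They were selected by gene symbol, and all 9 were found among the 49548 genes of the deposited table.

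The 6 libraries were made from colonic adenomas of Col6a1-cre, Rosa26-mTmG mice on the C57/BL6 background, in which azoxymethane (AOM) and repeated dextran sulfate sodium (DSS) had induced colitis-associated cancer. The mTmG reporter switches a cell from Tomato to GFP once Cre has acted, and the 3 libraries of Col6a1+ cancer-associated fibroblasts (CAFs) hold GFP+ cells while the 3 of Col6a1- CAFs hold Tomato+ cells. All mice of both groups therefore carried the same alleles and treatment. Both subsets were sorted after removal of CD45+, EpCAM+, CD31+ and Ter119+ cells, and each sample came from tumors pooled over several mice. By the study's account of the colon, Col6a1Cre marks pericytes, PDGFRα-high fibroblasts and a small part of the PDGFRα-low fibroblasts. The Col6a1- fibroblasts hold most of the PDGFRα-low cells and the fibroblasts called trophocytes, so neither subset is a uniform cell type.

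The values are normalized counts of 3′ mRNA reads, that is read counts per gene divided by a size factor of the library. They summed to between 3039152 and 3425249 per library, and between 14530 (Col6a1+ replicate 1) and 20511 genes had at least 1 normalized count. Rounding steps among the low values gave an estimate of 2568312 to 4522548 reads for 4 libraries and were not resolved for Col6a1+ replicate 1 and Col6a1- replicate 2. Col6a1 itself, whose regulatory sequence drives Cre, averaged 1363 ± 544 (SD, n = 3) normalized counts in the GFP+ libraries, against 202 ± 111 (SD, n = 3) in the Tomato+ libraries. Pan-fibroblast markers summed to between 37468 and 41177 in the Col6a1+ libraries and between 6799 and 13785 in the Col6a1- libraries. The 5 pericyte markers were all higher in Col6a1+ CAFs in limma and summed to between 39216 and 87357 against between 1080 and 1953. Epithelial transcripts were present in both subsets in spite of the EpCAM gate. The 9 epithelial markers summed to between 5069 and 5515 in Col6a1+ and between 18996 and 30143 in Col6a1- libraries, a 4.56-fold higher mean in Col6a1- CAFs, and 6 of them passed in limma in that direction. None of the 9 was at 0 in any library. Immune markers, of which 0 of 7 passed in limma and 4 had an unadjusted p under 0.05 with a log2 ratio below -1, summed to between 29 and 47 in Col6a1+ and between 108 and 218 in Col6a1- libraries. In sorted bulk samples, fewer cells of a type and less RNA per cell cannot be told apart.

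Among the 9 genes, the clearing enzyme and the retinol receptor differed most between the subsets, in opposite directions. Cyp26b1 was higher in Col6a1+ CAFs and Stra6 was higher in Col6a1- CAFs, whereas Rdh10 had overlapping levels in both. The log2 ratio (log2 fold change) is given here as the Col6a1+ mean of log2(normalized count + 1) less the Col6a1- mean, which understates the change of genes with few counts. It was tested with limma over the 26402 genes that had any normalized count, and a gene was called at a Benjamini-Hochberg adjusted p under 0.05. By this rule, which called 4.62% of all genes tested in either direction, 1 member was higher (Cyp26b1, where 2.66% of all genes tested were called in that direction), 1 was lower (Stra6, 1.96% of all genes) and 7 were not called. The median log2 ratio of the 9 members was -0.042, and that of all genes tested was -0.27. In 4 members, Cyp26b1, Aldh1a1, Stra6 and Aldh1a3, the 3 libraries of a subset lay wholly above those of the other, as they did for 19.5% of all genes tested. When the fit was blocked on the replicate number, neither member passed, but that fit called 0 of the 26402 genes. Blocked and fitted only to the 13515 genes averaging 10 or more normalized counts, it called 1852 genes, both members among them. Neither member passed in any of the 6 fits that left out a library, of which 4 called no gene at all.

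**Figure D1:**
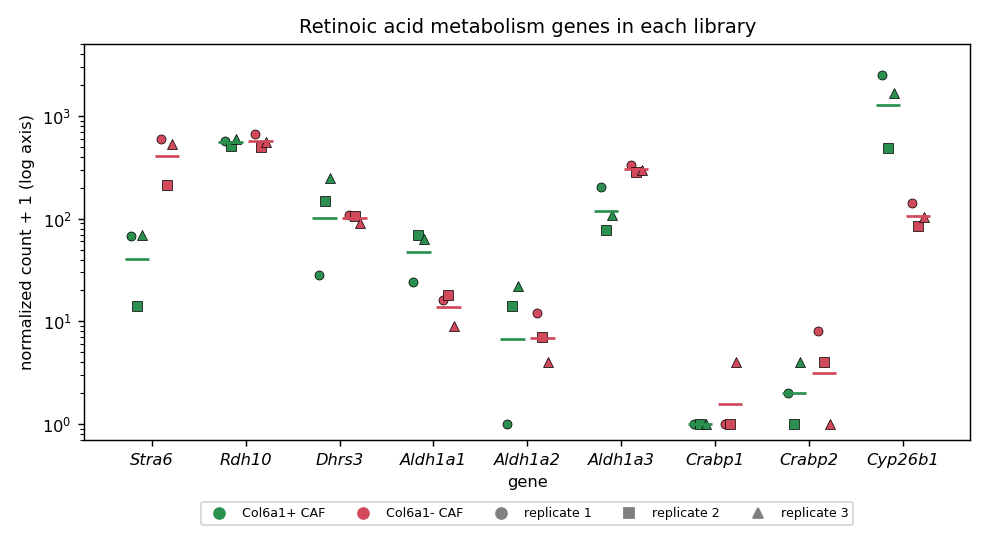
Normalized count plus 1 (log axis) of the 9 retinoic acid metabolism genes in each library, with green symbols for Col6a1+ CAFs, red symbols for Col6a1- CAFs, a symbol shape for each replicate number and horizontal bars for the mean on the log scale. Stra6 and Cyp26b1 separate the subsets in opposite directions, Rdh10 lies between 499 and 666 normalized counts in all libraries, and Crabp1 and Crabp2 stay under 10.

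**Figure D2:**
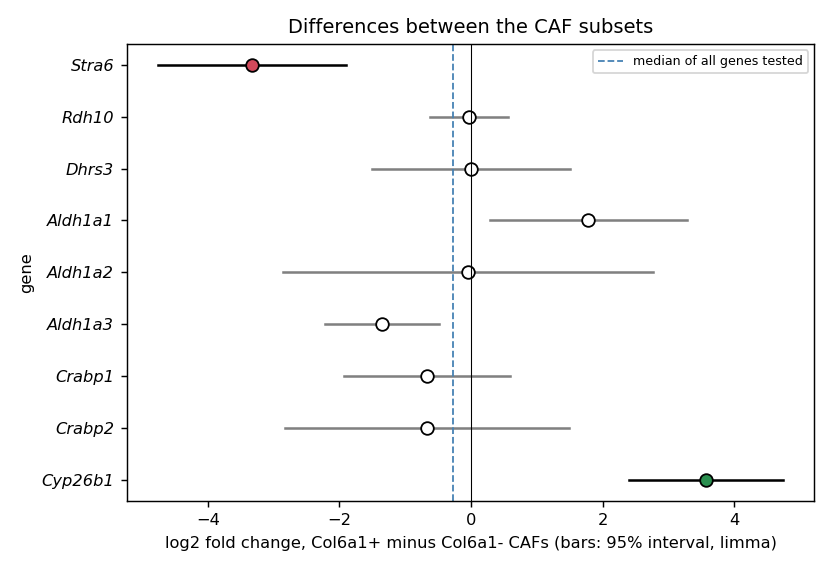
Log2 ratio (log2 fold change) of each member, Col6a1+ minus Col6a1- CAFs, with its 95% interval from limma. Filled points mark the 2 members called at an adjusted p under 0.05 (Cyp26b1 at 3.57 and Stra6 at -3.33), open points the other 7, and the dashed line the median of all genes tested.

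Cyp26b1 encodes a cytochrome P450 that hydroxylates retinoic acid and so ends its signal. The gene (ENSMUSG00000063415, protein-coding, chromosome 6 from 84571414 to 84593908 of mm10, minus strand) had 2512, 489 and 1681 normalized counts in Col6a1+ replicates 1, 2 and 3. In Col6a1- replicates 1, 2 and 3 it had 140, 83 and 103. All Col6a1+ libraries lay above all Col6a1- libraries, and the Col6a1+ libraries also spread widely among themselves, with replicate 2 the lowest of them. The group means were 1561 ± 1017 and 109 ± 28.9 (SD, n = 3 each), a 14.4-fold ratio. Its log2 ratio of 3.57 (SE 0.53, 95% interval 2.40 to 4.75) gave an adjusted p of 0.00480 in limma. Blocking on the replicate number moved the adjusted p to 0.0612, and it was 0.00160 once the block was fitted only to genes averaging 10 or more normalized counts. Fits that omitted a library had log2 ratios from 3.08, when Col6a1+ replicate 1 was omitted, to 4.26, when Col6a1+ replicate 2 was, and their adjusted p-values in limma ran from 0.0838 to 0.202. Across the Col6a1+ libraries, Cyp26b1 had the same order as the summed pericyte markers, which were 87357, 39216 and 44060 in replicates 1, 2 and 3. In the Col6a1- replicates these sums were 1953, 1413 and 1080, and replicates 2 and 3 had the opposite order in Cyp26b1. Of the 5 markers, Rgs5, Mcam and Kcnj8 had the order of the sum in the Col6a1+ libraries. Cspg4 (1339, 849 and 1430) and Notch3 (4826, 3159 and 5036) were highest in Col6a1+ replicate 3, unlike Cyp26b1. The 5 smooth muscle markers summed to 2579, 2429 and 3279 in Col6a1+ and to 530, 470 and 107 in Col6a1- replicates 1, 2 and 3. In limma, 3 of these 5 were called higher in Col6a1+ CAFs, while Cnn1 and Smtn were not called. The part of pericyte or smooth muscle content in the difference of Cyp26b1 was not tested.

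The bases that precede the 5′ end of the deposited gene span of Cyp26b1 are shown because this gene had the largest absolute log2 ratio of the members. They lie at chr6:84593909-84594060 on the minus strand of GRCm38.p6, the assembly of mm10, and were taken from RefSeq and read 5′ to 3′. Capitals mark a TATAAA match, which begins 41 bases before the 5′ end of the deposited span. The RefSeq start lies inside that span, so the match is farther from the RefSeq start. These letters are present on the gene strand in 7.59% of the 32851 RefSeq promoters searched. Each promoter searched is 250 bases long, whereas the stretch shown has 152.
Cyp26b1 upstream: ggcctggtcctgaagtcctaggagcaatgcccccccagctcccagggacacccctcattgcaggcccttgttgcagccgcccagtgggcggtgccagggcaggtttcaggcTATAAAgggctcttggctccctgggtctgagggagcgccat

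Stra6 encodes the membrane receptor that takes up retinol from its plasma carrier RBP4. The gene (ENSMUSG00000032327, protein-coding, chromosome 9 from 58063788 to 58153996, plus strand) had 592, 210 and 536 normalized counts in Col6a1- replicates 1, 2 and 3. In Col6a1+ replicates 1, 2 and 3 it had 67, 13 and 69. The subsets did not overlap, and replicate 2 was the lowest library of each. The Col6a1- mean was 446 ± 206 (SD, n = 3) and the Col6a1+ mean 49.7 ± 31.8 (SD, n = 3). The log2 ratio of -3.33 (SE 0.64, 95% interval -4.75 to -1.90) gave an adjusted p of 0.0164 in limma. It was 0.0612 with the replicate block and 0.00193 with the block fitted to genes averaging 10 or more. Omitting a library gave log2 ratios from -3.80, when Col6a1- replicate 2 was omitted, to -2.56, when Col6a1+ replicate 2 was, with adjusted p-values in limma of 0.109 to 0.315.

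The epithelial marker sum and the mesothelial marker Msln were higher in the same subset as Stra6. The epithelial sums were 18996, 30143 and 22496 in Col6a1- replicates 1, 2 and 3 and 5118, 5515 and 5069 in the Col6a1+ replicates. The 4 mesothelial markers, a cell type that the sort did not remove, summed to 33, 7 and 30 in Col6a1- and to 1, 7 and 2 in Col6a1+ replicates 1, 2 and 3. Most of the Col6a1- sum was Msln, with 33, 5 and 26 against 0, 2 and 1, while Lrrn4 was at 0 in all libraries. Upk3b and Wt1 had at most 3 normalized counts in a library and overlapped between the subsets. In limma, 0 of the 3 markers tested passed, and 1 of them (Msln) had an unadjusted p under 0.05. The part of epithelial or mesothelial transcripts in the difference of Stra6 was not tested. Stra6 overlaps Ccdc33 on the other strand, which had at most 30 normalized counts in a library.

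The upstream bases of Stra6 are shown for comparison with those of Cyp26b1, as the other member called. They lie at chr9:58128838-58129087 on the plus strand of GRCm38.p6, before the most upstream of the 4 Stra6 starts in the RefSeq promoter table, and hold no TATAAA match. This start lies inside the span that the deposited table gives for the gene.
Stra6 upstream: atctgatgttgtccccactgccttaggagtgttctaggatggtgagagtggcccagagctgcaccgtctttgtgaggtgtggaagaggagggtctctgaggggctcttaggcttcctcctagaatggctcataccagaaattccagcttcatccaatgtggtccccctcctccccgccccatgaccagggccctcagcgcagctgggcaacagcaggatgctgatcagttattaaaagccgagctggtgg

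Neither stretch holds a hexamer of the kind that retinoic acid receptors bind. The letters AGGTCA, searched on both strands as were all of these, are found in 14% of all promoters of 250 bases. The variant AGTTCA is found in 11.8%. The variant GGGTCA is found in 11.6%, and a further one, GGTTCA, in 8.85%. At least 1 of the 4 is found in 38.6%. The RefSeq table has 12 promoters for 6 of the members (Aldh1a1, Aldh1a2, Crabp1, Cyp26b1, Dhrs3 and Stra6), and among these windows 1 match was found, a GGGTCA in an Aldh1a1 promoter. No pair of these hexamers in direct repeat with a spacer of 1, 2 or 5 bases was found in them, and such pairs are present in 0.164%, 0.174% and 0.0883% of all promoters. The search covers only these letters in these windows.

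Rdh10 and Dhrs3, the 2 members that act on the reversible step, showed no detectable difference. Rdh10 oxidizes retinol to retinal and is a main source of retinal for retinoic acid synthesis in the embryo. It had 574, 513 and 594 normalized counts in Col6a1+ replicates 1, 2 and 3 and 666, 499 and 556 in Col6a1- replicates 1, 2 and 3. The subsets overlapped, and the log2 ratio of -0.026 (SE 0.27, limma adjusted p = 0.975) had a 95% interval of -0.62 to 0.57, which spans ratios of 0.651 to 1.48. Dhrs3, which returns retinal to retinol, had 27, 148 and 245 normalized counts in Col6a1+ replicates 1, 2 and 3. It had 108, 104 and 89 in the Col6a1- replicates. The low value of Col6a1+ replicate 1, the library with the fewest genes detected, set the estimate. The log2 ratio was -0.0017 (SE 0.68, limma adjusted p = 1.00) over all libraries and 0.92 (adjusted p = 0.174) without that library. The 95% interval of Dhrs3 over all libraries was -1.51 to 1.51, which spans ratios of 0.351 to 2.84 and is wider than that of Rdh10.

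The 3 retinal dehydrogenases, which form retinoic acid, did not change in the same direction. Aldh1a3 (ENSMUSG00000015134, chromosome 7 from 66390890 to 66427517) had 332, 282 and 297 normalized counts in Col6a1- replicates 1, 2 and 3, and 201, 76 and 108 in the Col6a1+ replicates. All Col6a1- libraries lay above all Col6a1+ libraries. Its log2 ratio of -1.35 (SE 0.39) missed the threshold (limma adjusted p = 0.0868). It passed in 1 alternative with an adjusted p, the replicate block fitted to genes averaging 10 or more (limma adjusted p = 0.0310), in which 13.7% of all genes tested were called. Aldh1a1 (ENSMUSG00000053279, chromosome 19 from 20601961 to 20643462) lay the other way, with 23, 68 and 63 normalized counts in Col6a1+ replicates 1, 2 and 3 and 15, 17 and 8 in the Col6a1- replicates. The subsets did not overlap, and the log2 ratio of 1.78 (SE 0.68) missed the threshold (limma adjusted p = 0.202). Aldh1a2 (ENSMUSG00000013584, chromosome 9 from 71215789 to 71296243), the main retinoic acid producer of many mesenchymal tissues in the embryo, was low throughout. It had 0, 13 and 21 normalized counts in Col6a1+ replicates 1, 2 and 3 and 11, 6 and 3 in the Col6a1- replicates. These overlap, and its log2 ratio had a 95% interval of -2.85 to 2.77, so that even large differences in either direction could not be detected. The log2 ratio of Aldh1a2 was -0.042 (SE 1.27) over all libraries and 1.34 (SE 0.68) without Col6a1+ replicate 1, where its value was 0.

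Added up, the 3 dehydrogenases had 224, 157 and 192 normalized counts in Col6a1+ replicates 1, 2 and 3 and 358, 305 and 308 in the Col6a1- replicates. Aldh1a3 made up 93.9% ± 2.22 (SD, n = 3) of this sum in Col6a1- CAFs. In Col6a1+ CAFs its share was 64.8% ± 21.9 (SD, n = 3), with 89.7%, 48.4% and 56.3% in replicates 1, 2 and 3. Replicate 1 was thus close to the Col6a1- libraries in this respect and the other two were not. Set against the same sum, Cyp26b1 had 11.2, 3.11 and 8.76 times the dehydrogenase counts in Col6a1+ replicates 1, 2 and 3. In Col6a1- replicates 1, 2 and 3 the ratio was 0.391, 0.272 and 0.334. The hydroxylase thus outnumbered the dehydrogenases in every Col6a1+ library and in no Col6a1- library. These ratios combine members and are given as a description of transcript counts, with no test and no length correction.

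**Figure D3:**
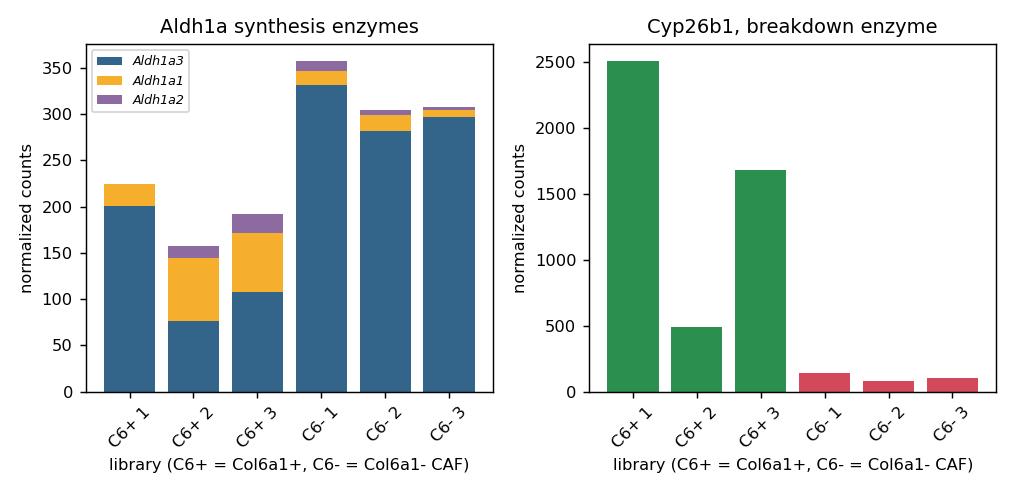
Normalized counts in each library of the 3 Aldh1a retinal dehydrogenase genes, stacked (left), and of Cyp26b1 (right, green for Col6a1+ and red for Col6a1- CAFs), both on linear axes from 0. The dehydrogenase sum is 157 to 224 in Col6a1+ and 305 to 358 in Col6a1- libraries, while Cyp26b1 is 489 to 2512 and 83 to 140.

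The cellular retinoic acid binding proteins were near the limit of detection. Crabp2, which carries retinoic acid to its nuclear receptor, had 1, 0 and 3 normalized counts in Col6a1+ replicates 1, 2 and 3 and 7, 3 and 0 in the Col6a1- replicates. Crabp1 was at 0 in 5 libraries and had 3 normalized counts in Col6a1- replicate 3. A value of 0 allows up to 3 counts, so no difference was detectable at this depth for either gene. Fabp5, a fatty acid binding protein that can also carry retinoic acid and is on the list of receptors and delivery proteins, had 155, 151 and 254 normalized counts in Col6a1+ replicates 1, 2 and 3 and 6, 5 and 15 in the Col6a1- replicates. Its log2 ratio of 4.38 (SE 0.57) had an adjusted p of 0.00232 in limma. It was 0.0612 with the replicate block, which called no gene, and 0.00242 with the block fitted to genes averaging 10 or more. Fabp5 has a processed pseudogene, Fabp5l2, with which it may share reads.

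Divided by the length of the gene model, as the deposited table also gives them, the members had a different order in the subsets. 3′ reads do not increase with transcript length, so that this division lowers long genes such as Stra6 and Aldh1a3. In Col6a1+ CAFs the highest level was that of Cyp26b1, with 380.0 ± 248 normalized counts per kilobase (SD, n = 3), whose libraries overlapped those of Rdh10 with 157 ± 11.8. Then followed Aldh1a1 with 29.3 ± 14.1, Dhrs3 with 23.0 ± 18.0 and Aldh1a3 with 17.4 ± 8.82, which overlapped from one to the next. Stra6 was below all 3 libraries of Aldh1a3, at 6.74 ± 4.31, and Aldh1a2, Crabp2 and Crabp1 came last. In Col6a1- CAFs Rdh10 was the highest, with 161 ± 23.8 normalized counts per kilobase (SD, n = 3), above Stra6 with 60.6 ± 28.0 and Aldh1a3 with 41.2 ± 3.49, whose libraries overlapped. Cyp26b1 followed with 26.5 ± 7.04, Dhrs3 with 16.5 ± 1.65 and Aldh1a1 with 7.62 ± 2.70, with no overlap between these neighbours. Without the division, Dhrs3 (140.0) and Aldh1a3 (128) had higher mean counts than Aldh1a1 (51.3) in Col6a1+ CAFs, and Cyp26b1 (83 to 140) overlapped Dhrs3 (89 to 108) in Col6a1- CAFs. On both scales, Cyp26b1 ranked 1 in Col6a1+ and 4 in Col6a1- CAFs, and Stra6 ranked 6 and 2.

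Of 43 other genes of retinoid metabolism and response, 40 had a count. Of these, 1 was called higher and 3 were called lower in Col6a1+ CAFs and 36 were not called, where 2.66% of all genes tested were called higher and 1.96% lower. Their median log2 ratio was -0.40, beside -0.27 for all genes tested. The gene called higher was Fabp5, and those called lower were Rdh9, Rdh16 and Cdx1. None of the 4 passed with the replicate block, which called no gene, and all 4 passed with the block fitted to genes averaging 10 or more.

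The list of further retinol and retinal enzymes held 18 genes, of which 17 were tested, 0 were called higher and 2 were called lower by limma. At an unadjusted p under 0.05 with a log2 ratio beyond 1 in size, 1 was higher and 7 were lower, and 14.7% of all genes tested met this criterion in either direction. Rdh9, a short-chain dehydrogenase that acts on retinols and steroids, had 246, 113 and 213 normalized counts in Col6a1- replicates 1, 2 and 3 and 0, 6 and 1 in the Col6a1+ replicates. Its log2 ratio was -6.24 (SE 0.83), with an adjusted p of 0.00266 in limma that was 0.0729 in the blocked fit and 0.00448 in the blocked fit of genes averaging 10 or more. The overlapping gene Gm28046 on the same strand had nearly the same counts, with 222, 111 and 204 in the Col6a1- libraries, so reads of the locus were counted for both. Rdh16, a neighbour in the same cluster on chromosome 10, had 96, 138 and 82 against 33, 31 and 24, and its log2 ratio of -1.79 (SE 0.45) had an adjusted p of 0.0494 in limma that was 0.108 and 0.0324 in these blocked fits. Rdh16 also did not pass with limma-voom (adjusted p = 0.0623). These genes are close relatives of Rdh1, which had 22, 21 and 26 against 0, 3 and 0 (limma adjusted p = 0.0523), and their shared sequence makes the split of reads among them uncertain. Rdh5, an 11-cis-retinol dehydrogenase, lay the other way with 387, 76 and 53 in Col6a1+ and 27, 14 and 23 in Col6a1- replicates 1, 2 and 3, and missed the threshold (limma adjusted p = 0.0888), but passed with the block fitted to genes averaging 10 or more (limma adjusted p = 0.0310). It overlaps Bloc1s1 on the same strand. The subset in which Rdh9, Rdh16 and Aldh1a3 were higher was the one with the higher epithelial and immune marker sums, and the part of these transcripts in their differences was not tested.

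**Figure D4:**
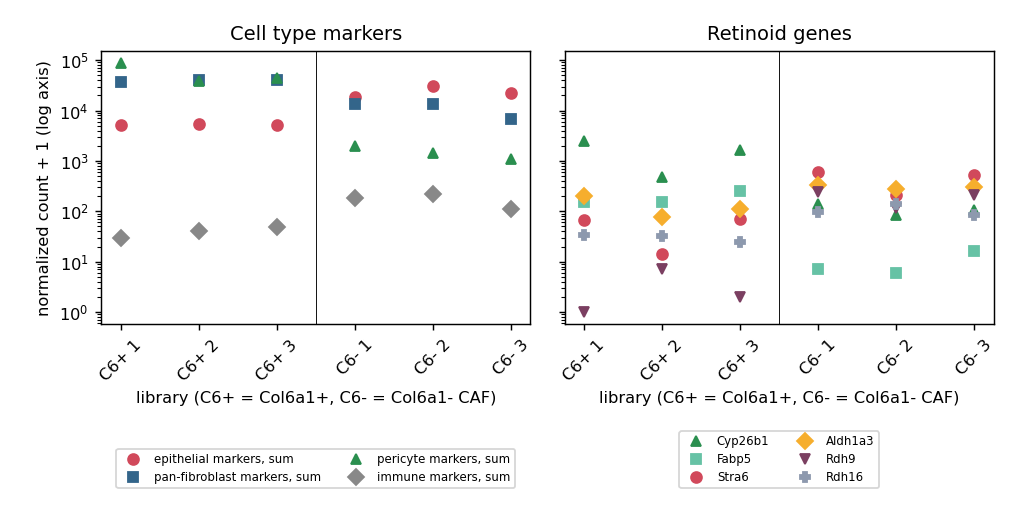
Normalized count plus 1 (log axis) in each library of the summed markers of 4 cell types (left) and of 6 retinoid genes (right), with Col6a1+ libraries to the left of the vertical line and Col6a1- libraries to the right. Epithelial and immune marker sums, Stra6, Aldh1a3, Rdh9 and Rdh16 are higher in the Col6a1- libraries, and pericyte and pan-fibroblast sums, Cyp26b1 and Fabp5 in the Col6a1+ libraries.

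In the list of 8 genes for retinoid transport and storage, 0 passed in limma in either direction, where 4.62% of all genes tested did. At an unadjusted p under 0.05 with a log2 ratio beyond 1 in size, 0 were higher and 1 was lower, namely Rbp7. This criterion was met by 14.7% of all genes tested in either direction. Lrat, which esterifies retinol for storage, had 0, 31 and 33 normalized counts in Col6a1+ replicates 1, 2 and 3 and 2, 4 and 5 in the Col6a1- replicates. Rbp4, the plasma carrier that Stra6 binds, had 21, 49 and 11 against 27, 10 and 10. Both overlapped between the subsets, with limma adjusted p-values of 0.642 and 0.644.

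The nuclear receptors of the pathway had transcripts in both subsets. Of the 7 genes for receptors and delivery, Fabp5 alone was called, where 4.62% of all genes tested were called in either direction. Rxra, a retinoid X receptor that pairs with the retinoic acid receptors, had 349, 197 and 205 normalized counts in Col6a1+ replicates 1, 2 and 3 and 129, 137 and 69 in the Col6a1- replicates, without overlap but short of a call (log2 ratio 1.17, limma adjusted p = 0.149). Rara had 48, 38 and 39 against 11, 33 and 26, also without overlap (limma adjusted p = 0.514). Libraries of the subsets did not overlap for 19.5% of all genes tested. Rarb, itself a classical target of retinoic acid, had 27, 19 and 28 against 89, 10 and 62, which overlap. Rarg and Rxrb overlapped too, and Rxrg had at most 11 normalized counts in a library. The 2 other Cyp26 hydroxylases, Cyp26a1 and Cyp26c1, were at 0 in all 6 libraries, so that Cyp26b1 was the only Cyp26 gene with counts. Hydroxylases outside the Cyp26 genes were not examined.

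Of the 8 other known target genes of retinoic acid, 0 were called higher and 1 was called lower by limma. Of all genes tested, 2.66% were called higher and 1.96% lower. At an unadjusted p under 0.05 with a log2 ratio beyond 1 in size, 1 was higher (Rarres2, limma adjusted p = 0.281) and 1 was lower. This criterion was met by 14.7% of all genes tested in either direction. The gene called lower was Cdx1, which is also an intestinal epithelial transcription factor, with 55, 58 and 49 normalized counts in Col6a1+ replicates 1, 2 and 3 and 303, 407 and 203 in the Col6a1- replicates (log2 ratio -2.42 with SE 0.37, an adjusted p of 0.00582 in limma, and of 0.0612 and 0.00396 in the blocked fits of all genes and of genes averaging 10 or more). The part of epithelial transcripts in the difference of Cdx1 was not tested. Tgm2, which encodes a transglutaminase, had 822, 2002 and 1466 against 815, 1182 and 635 (limma adjusted p = 0.434).

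The genes whose profile over the 6 libraries was nearest to that of each called member were sought among 8432 genes averaging 50 or more normalized counts, by the root mean square difference of their centred log2 values. For Cyp26b1 these were Phf11d (0.35) and Igfbp7 (0.39). Igfbp7, an abundant secreted protein of vessels and stroma, had 33739, 7481 and 24080 normalized counts in Col6a1+ replicates 1, 2 and 3 and 2427, 1370 and 787 in the Col6a1- replicates. It overlaps Polr2b on the other strand, which had at most 263. For Stra6 the nearest were Lypd6b (0.19) and Aspa (0.47). Lypd6b had 128, 45 and 116 normalized counts in Col6a1- replicates 1, 2 and 3 and 13, 3 and 12 in the Col6a1+ replicates, with replicate 2 the lowest in each subset, as for Stra6. The likeness was computed over 6 libraries in 2 groups and includes the difference between the groups.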

How the data were processed

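The authors mapped 3′ QuantSeq reads with TopHat2, and the remaining reads with Bowtie2, to mm10, counted them per gene with GenomicRanges and normalized them with DESeq through metaseqR. The deposited values are log2(normalized count + 1) in each library, with the size factors of the authors, and back-transformed they were whole normalized counts in 100% of cases (tolerance 1e-06). The deposited signal per base is the same count divided by the length of the gene model. The deposited columns of fold changes, p-values, false discovery rates and group means were not used. Whether counting used the strand is not given in the sources used here.

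Groups and replicate numbers came from the labels. A linear model of 2 groups was fitted to the deposited log2 values of 26402 genes (those with any normalized count) with limma 3.58.1 in R 4.3.3 (eBayes, trend on; residual degrees of freedom 4, prior 6.48), with Benjamini-Hochberg adjustment over all of them. The script was tested on simulated data. The limit given for a 0 covers counting error only. Deviations from the group means over 13515 genes with a mean of at least 10 correlated at 0.245, 0.125 and 0.144 between libraries of the same number. Otherwise they correlated at -0.245 to 0.150, the highest for Col6a1+ replicate 2 with Col6a1- replicate 3. As this exceeds 0.125 and 0.144, the correlations do not settle the pairing. The numbers were read as possible pairs, and the block is given where it changes a call. By a figure legend of the study, 3 samples were sequenced, each from tumors pooled over several mice. As there are 6 libraries, a Col6a1+ and a Col6a1- library may come from each pool. Neither this nor which libraries would pair is stated. Whether the pools share mice is not stated either, so p-values measure the spread between these samples.

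Named genes are the members, other retinoid genes that were called, 10 retinoid genes set by name (1 of which is not reported here), and the 2 nearest profiles of each called member. Other genes named were chosen after their values were seen. Members and lists were chosen with earlier results of these data known. Alternatives were library size alone, filters at 10 normalized counts, no filter, a pseudocount of 0.1, limma-voom, the block with and without a filter, an unadjusted criterion and leaving out each library. Promoter sequences are from RefSeq (GRCm38.p6). Python 3.11.15, NumPy 2.4.6, pandas 2.3.3 and Matplotlib 3.10.9 were used.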

Additional observations from a re-analysis of the deposited data

How the results depend on the processing

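The members called higher and lower (1 and 1) were also 1 and 1 with library size alone, with either filter at 10 normalized counts, with a pseudocount of 0.1 and with limma-voom. They were 0 and 0 without a filter on low values, where 21 of all genes were called higher and 7 lower. They were also 0 and 0 with the replicate block, which called no gene. With the block over genes with a mean of at least 10 they were 1 and 2, where 13.7% of all genes tested were called. By an unadjusted limma p under 0.05 and a log2 ratio beyond 1 in size they were 2 and 2. Of all genes tested, 14.7% met this unadjusted criterion in either direction. When 1 library was left out the members called were 0 and 0 in all 6 fits, and limma then called no gene at all in 4 of the fits. For the other retinoid genes, 1 higher and 3 lower became 0 and 0 without a filter and with the replicate block, 2 and 4 with the block over genes with a mean of at least 10, 1 and 5 with limma-voom, 4 and 9 by the unadjusted criterion, and between 0 and 1 higher and between 0 and 1 lower when 1 library was left out. Over all genes, 703 higher and 517 lower became 0 and 0 with the replicate block and 981 and 871 with the block over genes with a mean of at least 10. Cyp26b1, Aldh1a1, Stra6 and Aldh1a3 kept their direction under every alternative that gave a value. The direction was not kept when 1 library was left out for Aldh1a2 (log2 ratio -0.89 to 1.34), Rdh10 (-0.12 to 0.086) and Dhrs3 (-0.64 to 0.92). The cause of these changes was not tested, except that fits without a library have fewer samples. The filter at a mean of 10 leaves Aldh1a2, Crabp1 and Crabp2 without a value, and that at 10 in every library Aldh1a1 as well. Crabp1, Crabp2 and Aldh1a2 had at most 21 normalized counts in a library, which limits what could be detected for them.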

Other observations

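Among the 6 members averaging 10 or more normalized counts, 4 (Aldh1a3, Cyp26b1, Rdh10 and Stra6) had their lowest value in replicate 2 of both subsets. Of the 13515 genes with such an average, 8.35% had this pattern, 21.0% were lowest in replicate 1 of both subsets and 10.4% in replicate 3 of both. Of the 26 other retinoid genes with such an average, only Rarb and Fabp5 were lowest in replicate 2 of both subsets. There, Rarb had 19 normalized counts in Col6a1+ and 10 in Col6a1- CAFs, and Fabp5 had 151 and 5. The pattern was noticed in these libraries after their values were seen and has no test.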
